A study of Mus musculus with 4 samples.

Results

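The CXCL12 axis was followed through 4 single-cell libraries by 4 listed genes of the 31053 in the matrices: the ligands Cxcl12 and Cxcl14 and the receptors Cxcr4 and Ackr3. The genes were listed by name, and all 4 had a UMI (unique molecular identifier, a tag that counts 1 captured transcript) in each of the 4 libraries. The libraries came from mice carrying subcutaneous MycCaP grafts, a mouse prostate cancer line derived from HiMyc mice; the labels give the genotype as VFB and the methods describe FVB mice on chow. Cells were taken from the tumor or from SAT (subcutaneous adipose tissue), after PBS (labelled Control) or after D-CAN, a peptide described as targeting adipose stromal cells (ASC), and dead cells and red blood cells were removed. The groups were therefore Tumor_PBS, Tumor_D-CAN, SAT_PBS and SAT_D-CAN, with 1 library each. Age, dose and the number of mice in a library were not given in the sources used here. With 1 library per group no difference could be tested between treatments or tissues. Every interval below is an exact 95% interval that covers counting error only, and not differences between animals or preparations. Intervals on summed UMIs also leave out the spread between cells. They treat the UMIs of 1 cell as independent, and so are too narrow where few cells hold most UMIs.

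CXCL12 is a homeostatic chemokine that stromal and vascular cells secrete and that holds or draws cells bearing CXCR4, among them lymphocytes, myeloid cells and haematopoietic progenitors. ACKR3, also called CXCR7, binds CXCL12 without G protein signalling and takes it up, so that cells bearing it can lower the ligand around them. CXCL14 is a related chemokine made mainly by fibroblasts and epithelia, and it has been described as a modulator of CXCR4. In adipose tissue CXCL12 is known from fibroblastic progenitors and from endothelium, and in tumors from cancer-associated fibroblasts.

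In GRCm38 coordinates, Ackr3 (ENSMUSG00000044337) lies on chromosome 1 from 90203980 to 90216751 on the plus strand. Cxcr4 (ENSMUSG00000045382) lies on chromosome 1 from 128588199 to 128592293 on the minus strand. Cxcl12 (ENSMUSG00000061353) lies on chromosome 6 from 117168535 to 117181367 on the plus strand, and Cxcl14 (ENSMUSG00000021508) on chromosome 13 from 56288643 to 56296551 on the minus strand. All are protein-coding genes, and the counts are per gene, so that isoforms were not told apart.

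The Tumor_PBS, Tumor_D-CAN, SAT_PBS and SAT_D-CAN matrices held 2830, 1525, 2851 and 1922 cells, with median depths of 3498, 4855, 1700 and 2921 UMIs per cell. Cells with at least 200 genes were clustered without the 4 genes and named from marker lists. Tumor libraries gave cancer-like, leukocyte-like, endothelial-like, fibroblast-like and perivascular-like cells, with 392 and 151 cells left unnamed. SAT libraries gave the same classes without cancer-like cells, plus 189 (PBS) and 24 (D-CAN) mixed vascular cells that carried endothelial and mural markers together. The endothelial-like classes held 99, 63, 530 and 169 cells, the fibroblast-like 82, 64, 282 and 70, and the perivascular-like 77, 45, 14 and 29. Leukocyte-like cells made up 23.2%, 28.7%, 63.9% and 84.0% of the 4 libraries. SAT_PBS endothelial-like and fibroblast-like cells were shallow, with medians of 988.5 and 871.5 UMIs against 4149 and 5839 in SAT_D-CAN. Levels are therefore given as CPM, the UMIs of a gene per 1 M UMIs of the class, and also at equal depth, with 1000 UMIs drawn at random from each cell and shallower cells left out.

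**Figure D1:**
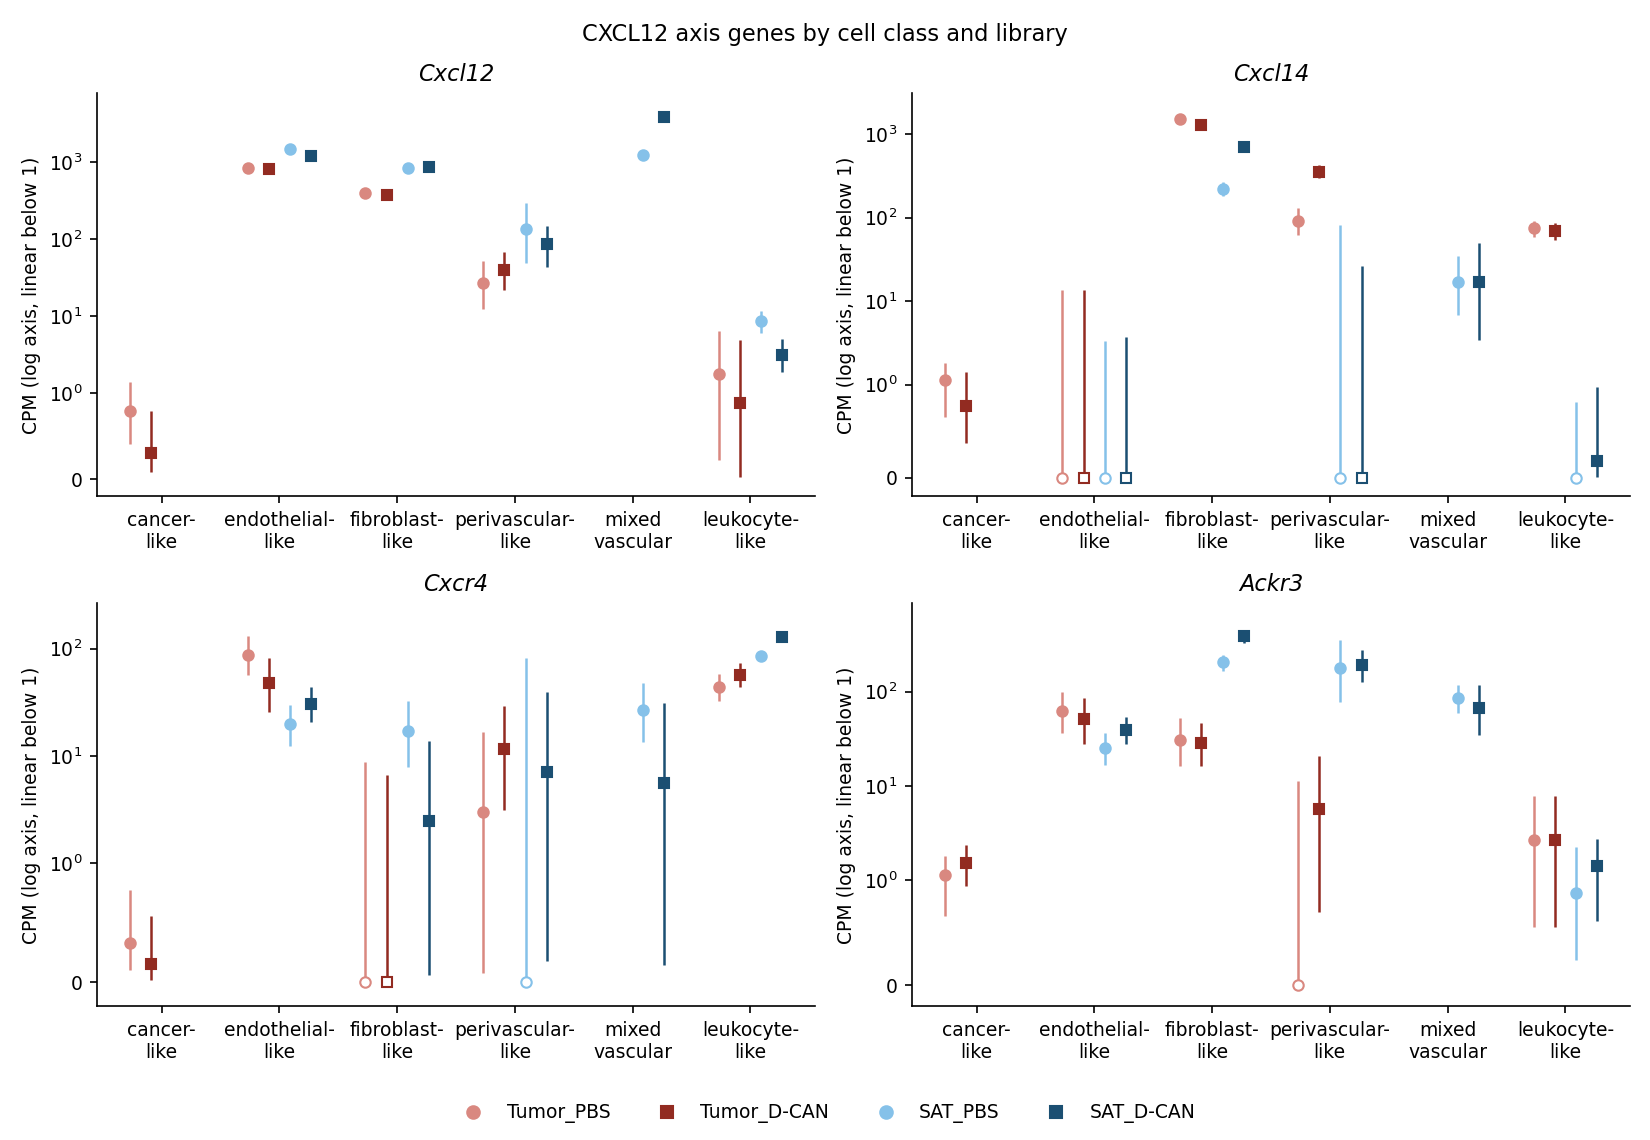
Level of Cxcl12, Cxcl14, Cxcr4 and Ackr3 in CPM (vertical axis, log scale, linear below 1) in 6 cell classes of the 4 libraries. Points are sums over the cells of a class, bars are 95% counting intervals and open symbols mark 0 UMIs. Among these classes Cxcl12 is high in endothelial-like and fibroblast-like cells, at 369 to 1498 CPM, and in the mixed vascular cells of SAT, Cxcl14 is at 0 in endothelial-like cells of every library, and Cxcr4 is at 130 CPM in SAT_D-CAN leukocyte-like cells.

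Endothelial-like cells held more of the Cxcl12 UMIs than any other class in each library, by little in Tumor_D-CAN. They held 53.5%, 49.1%, 62.9% and 52.9% of the Cxcl12 UMIs of Tumor_PBS, Tumor_D-CAN, SAT_PBS and SAT_D-CAN, while making up 3.59%, 4.24%, 18.7% and 8.91% of the cells. Fibroblast-like cells held 39.4%, 45.8%, 16.4% and 15.6%, and perivascular-like cells at most 3.11%. Mixed vascular cells held 19.0% and 30.1% of the SAT_PBS and SAT_D-CAN Cxcl12 UMIs. The endothelial-like and fibroblast-like parts were thus close in the tumor, whereas in SAT the endothelial-like cells held more than 3 times the fibroblast-like part.

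At an equal depth of 1000 UMIs, an endothelial-like cell carried 1.32 Cxcl12 UMIs in Tumor_PBS (95% interval 1.08 to 1.60), 0.898 in Tumor_D-CAN (0.652 to 1.21), 1.35 in SAT_PBS (1.21 to 1.5) and 1.14 in SAT_D-CAN (0.981 to 1.33). Stromal cells, taken as fibroblast-like and perivascular-like together, carried 0.234, 0.248, 0.745 and 0.677. The log2 ratio of endothelial over stromal was 2.49 (1.93 to 3.08) in Tumor_PBS, 1.86 (1.13 to 2.61) in Tumor_D-CAN, 0.86 (0.54 to 1.19) in SAT_PBS and 0.76 (0.33 to 1.19) in SAT_D-CAN, or 5.63, 3.63, 1.81 and 1.69-fold. Taken as whole classes, endothelial-like cells were above stroma in each library by more than counting error. In SAT the difference was smaller where the mixed vascular cells were counted as stroma, at 0.44 and 0.0074. Thinning left out 20 of 99, 14 of 63, 268 of 530 and 16 of 169 endothelial-like cells, and 5, 0, 159 and 6 stromal cells.

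The 2 stromal classes were unlike in Cxcl12. Perivascular-like cells, the mural cells around vessels, carried 0.0417, 0.0222 and 0.143 Cxcl12 UMIs at 1000 UMIs in Tumor_PBS, Tumor_D-CAN and SAT_PBS, and none was found in 28 thinned cells of SAT_D-CAN. Fibroblast-like cells alone carried 0.402, 0.406, 0.813 and 0.969, so the log2 ratio of endothelial over fibroblast-like was 1.71 (1.13 to 2.32), 1.14 (0.41 to 1.90), 0.73 (0.41 to 1.07) and 0.24 (-0.18 to 0.68). Against fibroblast-like cells alone the SAT_D-CAN difference was within counting error.

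Shares of cells with a Cxcl12 UMI followed the same order. At 1000 UMIs, 45.6%, 38.8%, 59.2% and 52.3% of endothelial-like cells in Tumor_PBS, Tumor_D-CAN, SAT_PBS and SAT_D-CAN had one, against 24.4%, 26.6%, 34.1% and 38.5% of fibroblast-like cells. Leukocyte-like cells, which should lack Cxcl12, gave 0.218%, 0%, 0.782% and 0.281% at the same depth. Unthinned, the endothelial-like shares were 53.5%, 55.6%, 56.8% and 78.7%, at median depths of 1885, 2687, 988.5 and 4149 UMIs, against 1453, 2143, 2016 and 2863.5 in leukocyte-like cells.

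**Figure D2:**
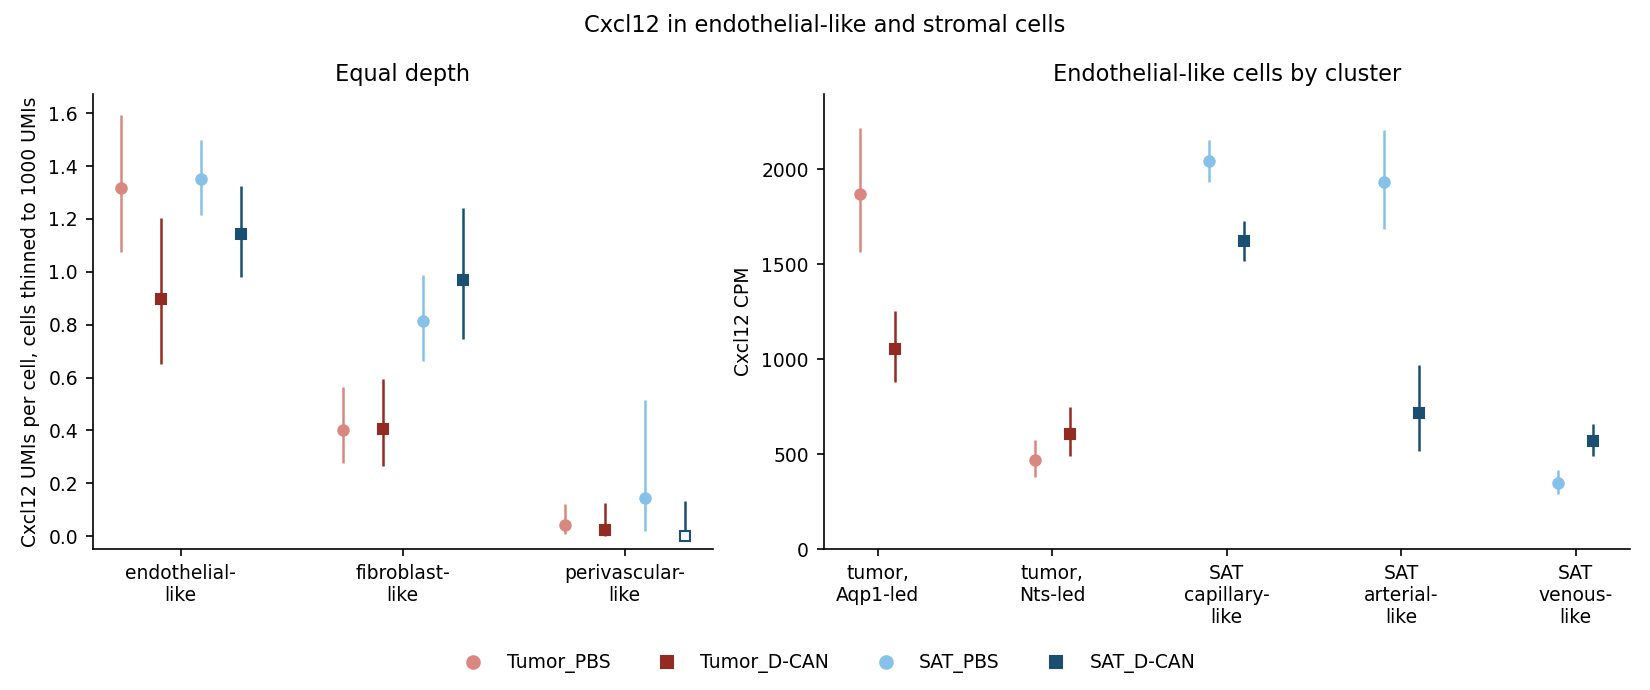
Cxcl12 per cell. The left panel gives UMIs per cell after thinning to 1000 UMIs in endothelial-like, fibroblast-like and perivascular-like cells of each library, and the right panel CPM in endothelial clusters, with 95% counting intervals as bars. Endothelial-like cells carry 0.898 to 1.35 UMIs per cell against 0.402 to 0.969 in fibroblast-like cells, and venous-like cells lie below capillary-like cells in both SAT libraries.

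Endothelial-like cells were not uniform in Cxcl12. In SAT, capillary-like clusters held 2042 CPM (1934 to 2155) in SAT_PBS and 1621 (1520 to 1727) in SAT_D-CAN, and venous-like clusters 348 (289 to 416) and 570 (492 to 657). The log2 ratio of capillary-like over venous-like at 1000 UMIs was 2.06 (1.48 to 2.69) and 1.15 (0.53 to 1.82). At that depth venous-like cells carried 0.375 and 0.658 Cxcl12 UMIs per cell, below fibroblast-like cells of the same libraries at 0.813 and 0.969. Arterial-like cells, led by Rbp7 and Cldn5 with Sox17 and Sema3g among the leading genes, were at 1934 CPM in SAT_PBS (47 of 70 cells with a UMI) and at 718 in SAT_D-CAN (5 of 14 cells). Capillary-like over arterial-like went in opposite directions in the 2 SAT libraries at 1000 UMIs, with log2 ratios of -0.63 (-0.99 to -0.26) and 2.76 (1.19 to 5.06), the latter on 3 arterial-like UMIs. Capillary-like above venous-like therefore held in both libraries, and capillary-like against arterial-like did not. A deep capillary-like cluster made up 12.5% of SAT_PBS and 47.9% of SAT_D-CAN endothelial-like cells, so class values sum over different mixtures.

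Tumor endothelial-like cells split into a cluster led by Aqp1, a water channel gene, and a cluster led by Nts, the neurotensin gene. The Aqp1-led cluster held 1869 CPM of Cxcl12 (1564 to 2217) in Tumor_PBS and 1057 (883 to 1255) in Tumor_D-CAN. The Nts-led cluster held 471 (381 to 576) and 609 (490 to 748). At 1000 UMIs the Aqp1-led cells carried 2.48 and 1.2 UMIs per cell against 0.778 and 0.421, a log2 ratio of 1.67 (1.08 to 2.27) and 1.51 (0.38 to 2.83). Haemoglobin transcripts Hba-a1 and Hbb-bs were among the leading genes of the Aqp1-led cluster, and their part in this difference was not tested.

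At 1000 UMIs tumor and SAT differed in stromal Cxcl12 more than in endothelial Cxcl12. The stromal class differed in makeup, with 82 fibroblast-like and 77 perivascular-like cells in Tumor_PBS against 282 and 14 in SAT_PBS. In the D-CAN pair the class held 64 and 45 against 70 and 29. Per stromal cell at 1000 UMIs the tumor was lower, with a log2 ratio of tumor over SAT of -1.67 (-2.26 to -1.11) in the PBS pair and -1.45 (-2.16 to -0.78) in the D-CAN pair. Within fibroblast-like cells alone it was -1.01 (-1.63 to -0.43) and -1.25 (-1.97 to -0.57). Endothelial-like cells differed by less than counting error at that depth, at -0.04 (-0.37 to 0.28) and -0.35 (-0.86 to 0.13). With all UMIs, however, the tumor endothelial-like CPM was lower, at 833 against 1498 and 811 against 1213, with log2 ratios of -0.85 (-1.05 to -0.64) and -0.58 (-0.79 to -0.37). Fibroblast-like cells with all UMIs were at -1.06 (-1.33 to -0.80) and -1.23 (-1.49 to -0.98). In the PBS pair this interval overlapped that of endothelial-like cells.

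Among SAT fibroblast-like cells, Cxcl12 was concentrated in a cluster led by Apod, an apolipoprotein gene of fibroblasts, together with Dcn, which encodes the matrix proteoglycan decorin. This Apod-led cluster held 2082 CPM in SAT_PBS and 1412 in SAT_D-CAN, close to the capillary-like level in SAT_PBS and somewhat below it in SAT_D-CAN. The deep cluster led by Pi16, a marker of interstitial progenitor fibroblasts, held 110 and 82.6. In SAT_PBS a shallow Pi16-led cluster held 342 CPM, with 56.4% of its Cxcl12 UMIs in 1 cell, and a cluster led by Col1a1 and Cthrc1, genes of matrix-producing fibroblasts, held 838. In tumors a cluster led by Cfd and Pi16 held 968 and 700 CPM and the larger Sfrp2-led cluster 248 and 312. The tumor difference, a log2 ratio of 1.96 (1.51 to 2.42) and 1.17 (0.70 to 1.62) with all UMIs, was within counting error at 1000 UMIs, at 0.54 (-0.65 to 1.64) and 0.67 (-0.74 to 1.94), and 1 cell held 31.0% and 63.2% of the Cfd and Pi16 cluster's UMIs.

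The makeup of the fibroblast-like class differed between the SAT libraries. The shallow Pi16-led cluster was 57.1% of SAT_PBS fibroblast-like cells, and the Apod-led cluster 23.4% of SAT_PBS and 65.7% of SAT_D-CAN. The deep Pi16-led cluster was 7.45% and 28.6%. Class values for SAT fibroblast-like cells are therefore sums over different mixtures in the 2 libraries.

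**Figure D3:**
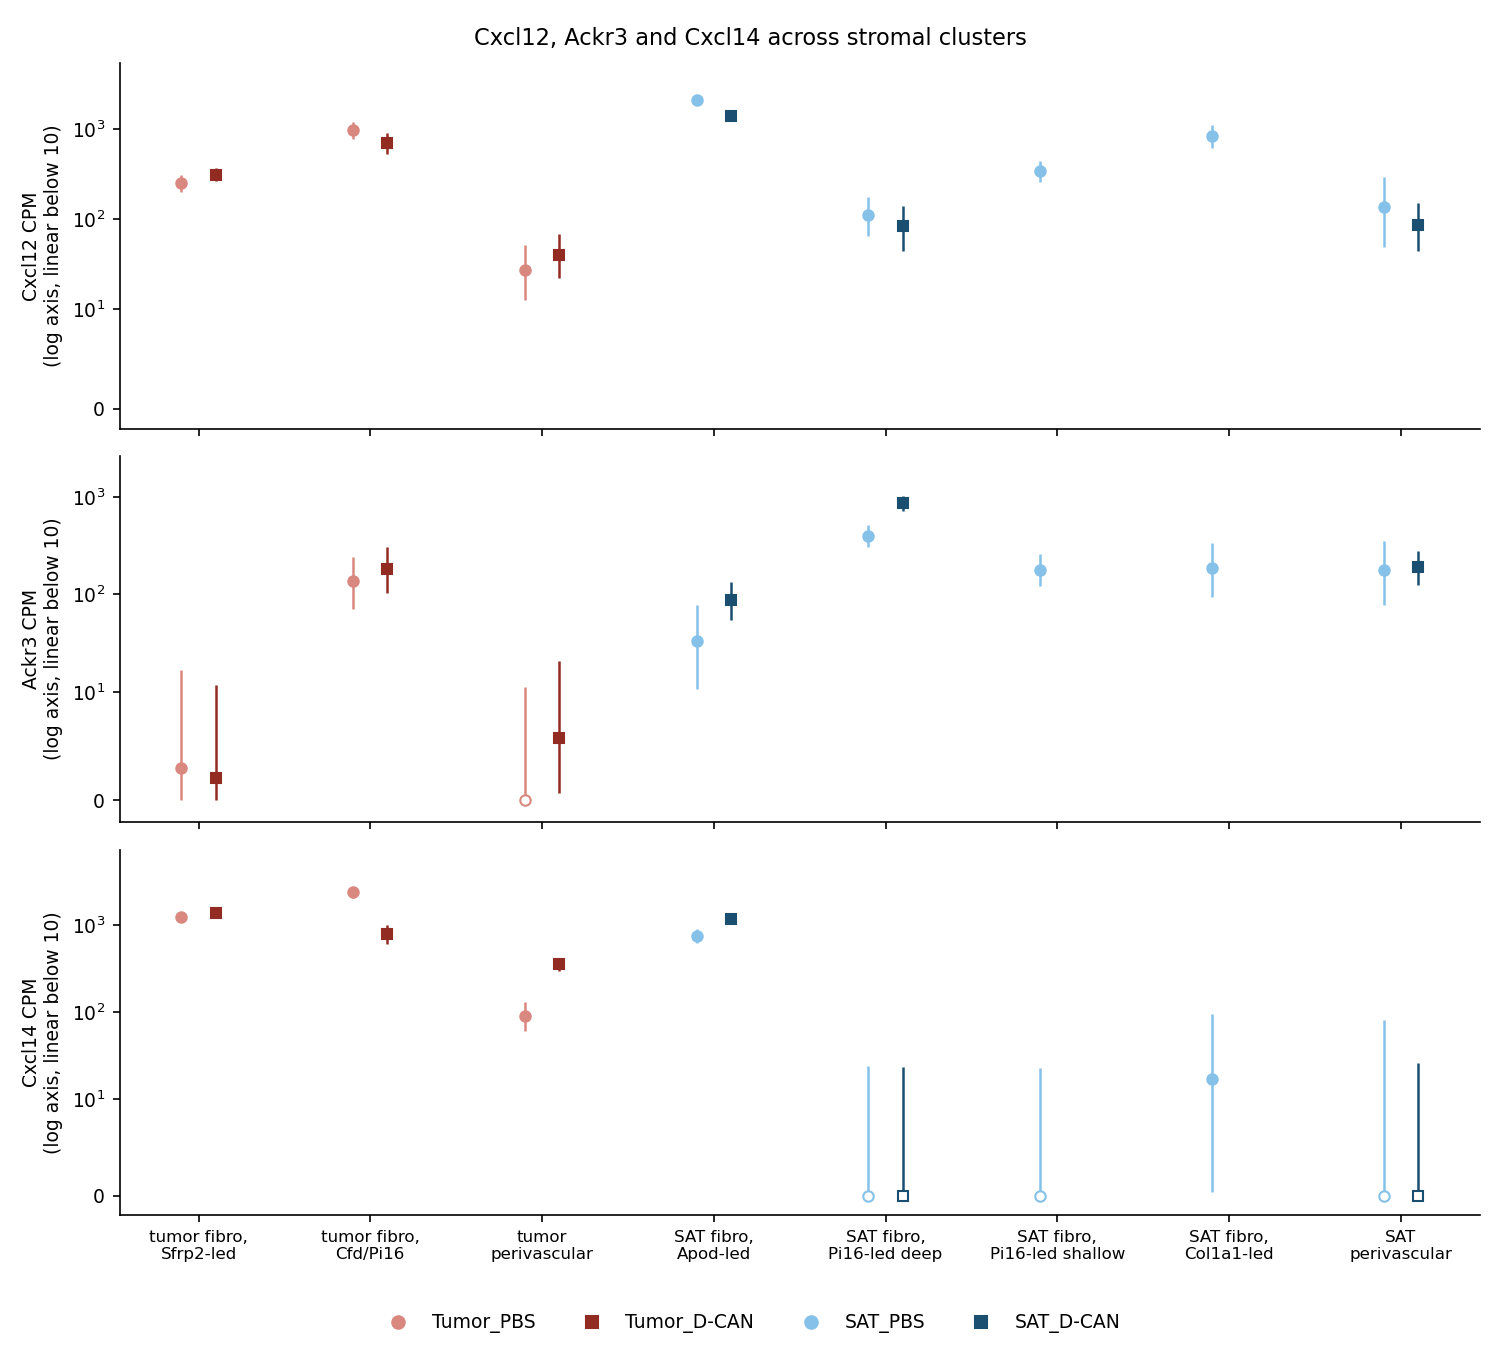
Cxcl12, Ackr3 and Cxcl14 in CPM (log axis, linear below 10) in fibroblast-like and perivascular-like clusters of tumor and SAT, for clusters of at least 10 cells, with 95% counting intervals. In SAT the Apod-led cluster is high in Cxcl12 and Cxcl14, at 2082 and 763 CPM in SAT_PBS, while the deep Pi16-led cluster is high in Ackr3, at 401.

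Mixed vascular cells of SAT carried 1227 CPM of Cxcl12 in SAT_PBS (1122 to 1339) and 3798 in SAT_D-CAN (3518 to 4095). In SAT_D-CAN 1 of the 24 cells held 24.2% of these UMIs. Sorted by the transcripts they carried, the cells with endothelial but no mural transcripts held 1728 CPM in SAT_PBS (26 cells) and 4617 in SAT_D-CAN (7 cells). Those with mural transcripts only held 516 (22 cells) and 635 (10 cells), and those with both held 1300 (134 cells) and 4898 (7 cells). Cxcl12 in this class was thus higher where endothelial transcripts were present, as in the separate endothelial-like and perivascular-like classes. Whether these barcodes are single cells was not tested.

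Cxcl14 was a fibroblast transcript in every library. Fibroblast-like cells held 80.7%, 76.9%, 92.8% and 98.6% of the Cxcl14 UMIs of Tumor_PBS, Tumor_D-CAN, SAT_PBS and SAT_D-CAN, at 1495 CPM (1380 to 1616), 1292 (1199 to 1389), 221 (183 to 265) and 703 (624 to 790). Not 1 Cxcl14 UMI was found in endothelial-like cells of any library. Fibroblast-like CPM was 136, 117, 82.0 and 231-fold that of a floor of 3 counts over the endothelial-like class. Cxcl12 and Cxcl14 therefore shared the fibroblast-like class and parted in the endothelium.

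Perivascular-like cells carried less Cxcl14. In tumors the log2 ratio of fibroblast-like over perivascular-like at 1000 UMIs was 4.56 (3.30 to 6.20) in PBS and 2.95 (1.84 to 4.31) in D-CAN. In SAT perivascular-like cells were at 0, and fibroblast-like CPM was 3.29-fold that of a floor of 3 counts in SAT_PBS and 33.0-fold in SAT_D-CAN. The exact lower limit of the log2 ratio was 1.40 and 4.74 with all UMIs. At 1000 UMIs it was -0.61 and 2.27, so the SAT_PBS difference was within counting error at equal depth. In Tumor_D-CAN 1 perivascular-like cell held 86 of 124 UMIs, and without it the class was at 118 CPM rather than 356.

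Tumor fibroblast-like cells carried more Cxcl14 than those of SAT. At 1000 UMIs they had 1.63 UMIs per cell against 0.187 in the PBS pair and 1.2 against 0.662 in the D-CAN pair, a log2 ratio of 3.13 (2.48 to 3.83) and 0.86 (0.31 to 1.44). At that depth 39.0% and 39.1% of tumor fibroblast-like cells had a UMI, against 9.76% and 16.9% in SAT. In SAT the Cxcl14 came from the Apod-led cluster, at 763 CPM in SAT_PBS (29 of 66 cells, 40.0% of UMIs in 1 cell) and 1191 in SAT_D-CAN (25 of 46 cells), and the other SAT fibroblast-like clusters had 0 or 1 UMI. Both tumor fibroblast clusters carried it, at 1260 and 1376 CPM in the Sfrp2-led cluster and 2396 and 798 in the Cfd and Pi16 cluster. The Apod-led cluster thus held both ligands in SAT, and the deep Pi16-led cluster little of either.

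Tumor leukocyte-like cells also contained Cxcl14, at 74.3 CPM in Tumor_PBS and 68.5 in Tumor_D-CAN. A UMI was found in 63 of 640 (9.84%) and 52 of 427 (12.2%) of them, against 0 of 1815 in SAT_PBS, which allows a share of up to 0.165%, and 1 of 1594 in SAT_D-CAN. Most of these were macrophage-like cells, at 82.6 CPM (56 of 491 cells) and 86.5 CPM (50 of 303 cells), where the SAT macrophage-like cells gave 0 of 125 and 0 of 58, which allows up to 2.40% and 5.17%. With all UMIs the exact lower limit of the tumor over SAT ratio in macrophage-like cells was 7.12-fold in the PBS pair and 9.83-fold in the D-CAN pair. At 1000 UMIs the shares were 7.42% and 9.92%.

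The ratio of Cxcl14 to other fibroblast transcripts differed between classes. Per 1000 UMIs of the fibroblast marker list, tumor macrophage-like cells had 1389 Cxcl14 UMIs (1092 to 1741) in PBS and 1471 (1157 to 1843) in D-CAN, against 42 in fibroblast-like cells of both libraries. Among macrophage-like cells with no collagen or Dcn UMI, 45 of 443 (10.2%) and 41 of 261 (15.7%) had a Cxcl14 UMI, and among those with 1 or more 11 of 48 (22.9%) and 9 of 42 (21.4%). Of the 443 and 261 cells 409 and 228 had a UMI of the C1q complement genes, which macrophages express. No macrophage-like cell had more than 5 Cxcl14 UMIs. Cancer-like cells were at 1.13 and 0.772 CPM and had 29.1 (17.0 to 46.6) and 49.0 (23.5 to 90.1) Cxcl14 UMIs per 1000 of the fibroblast list. The part of fibroblast RNA in the macrophage-like and cancer-like values was not tested beyond these ratios.

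Most Cxcr4 UMIs lay in leukocyte-like cells, and the gene was sparse in tumors. Leukocyte-like cells held 62.0%, 76.2%, 90.2% and 95.7% of the Cxcr4 UMIs of Tumor_PBS, Tumor_D-CAN, SAT_PBS and SAT_D-CAN, at 43.9 CPM (32.5 to 58.0), 56.9 (43.9 to 72.7), 84.5 (76.3 to 93.4) and 130 (121 to 139). At 1000 UMIs 4.37%, 7.20%, 7.75% and 14.3% of them had a UMI. Perivascular-like cells, taken as the class that should lack Cxcr4, gave 1 of 72 and 0 of 45, 14 and 28 cells at that depth. Tumor fibroblast-like cells had no Cxcr4 UMI, and leukocyte-like cells were at least 6.16-fold higher in Tumor_PBS and at least 10.6-fold higher in Tumor_D-CAN.

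Within SAT leukocytes, B cell-like cells stood above T cell-like cells. B cell-like cells were at 136 CPM (117 to 158) in SAT_PBS and 252 (228 to 278) in SAT_D-CAN, with a UMI in 131 of 570 and 246 of 590 cells. T cell-like cells were at 65.1 (53.8 to 78.1) and 92.0 (80.1 to 105), with a UMI in 86 of 682 and 135 of 715. At 1000 UMIs the B over T log2 ratio was 0.91 (0.31 to 1.53) and 1.34 (0.91 to 1.79), with 11.2% and 22.4% of B cell-like cells positive against 5.22% and 8.53% of T cell-like cells. The difference was beyond counting error in both SAT libraries, and 20.9% and 22.2% of all genes tested were at least 2-fold apart between these B and T classes.

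T cell subsets were not told apart by Cxcr4. T cell-like cells with a Cd4 and no Cd8 UMI were at 44.3 and 81.0 CPM in SAT_PBS and SAT_D-CAN, and those with a Cd8a or Cd8b1 and no Cd4 UMI at 58.9 and 102. The log2 ratio of Cd8+ over Cd4+ was 0.41 (-0.51 to 1.41) and 0.33 (-0.26 to 0.95) with all UMIs. T cell-like cells with a UMI of Foxp3, the regulatory T cell factor, were at 47.9 (30 cells) and 133 CPM (37 cells).

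Other SAT leukocytes spread around the lymphocytes. NK cell-like cells were at 70.7 and 74.8 CPM, macrophage-like cells at 46.0 and 93.1 and dendritic cell-like cells at 78.2 and 14.3. Neutrophil-like cells, which carry more Cxcr4 as they age, had the highest level on very few cells, at 264 CPM (85.8 to 617; 4 of 13 cells) in SAT_PBS and 328 (170 to 573; 10 of 18 cells) in SAT_D-CAN. Over T cell-like cells the neutrophil log2 ratio was 2.02 (0.37 to 3.29) and 1.83 (0.86 to 2.67) with all UMIs, and within counting error at 1000 UMIs, at 1.09 (-4.25 to 3.66) and 1.48 (-0.19 to 2.78). B over NK and B over macrophage were beyond counting error at 1000 UMIs in SAT_D-CAN, at 1.60 (0.35 to 3.25) and 1.42 (0.16 to 3.06), and not in SAT_PBS, at 0.85 (-0.57 to 2.76) and 1.22 (-0.19 to 3.14). With all UMIs the SAT_PBS ratios were 0.94 (0.16 to 1.85) and 1.56 (0.80 to 2.43).

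**Figure D4:**
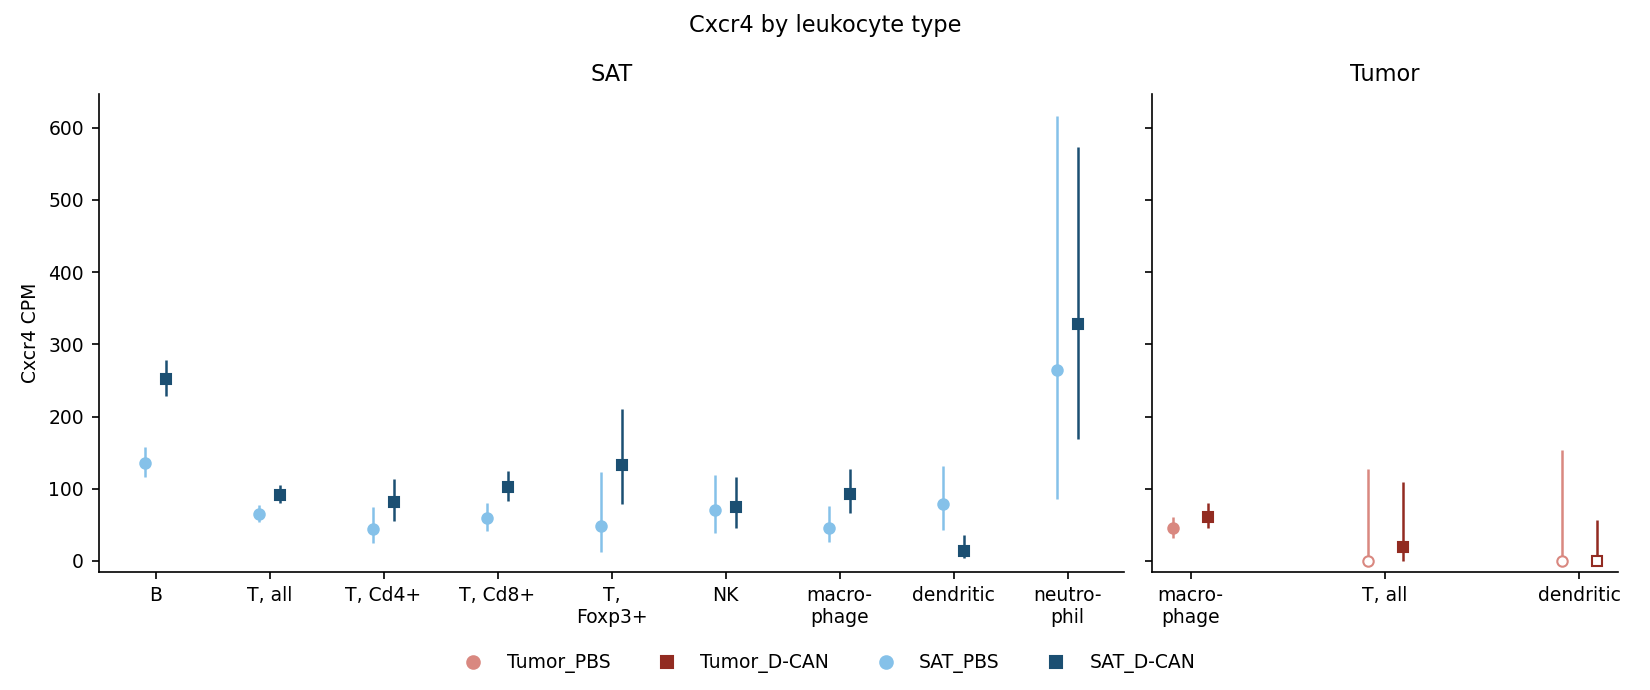
Cxcr4 in CPM in leukocyte-like cells of SAT and tumor, with 95% counting intervals as bars and open symbols at 0 UMIs. In SAT, B cell-like cells lie at 136 and 252 CPM, above T cell-like cells at 65.1 and 92.0, and neutrophil-like cells have the widest intervals. Tumor macrophage-like cells lie at 45.1 and 61.1.

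Tumor leukocytes were of another makeup. Macrophage-like cells were 491 of 640 and 303 of 427 leukocyte-like cells in tumors, and T cell-like cells only 20 and 26. Tumor T cell-like cells gave a Cxcr4 UMI in 0 of 20 and 1 of 26 cells, and dendritic cell-like cells in 0 of 12 and 0 of 21. The 95% upper limits in tumor T cell-like cells, 127 and 110 CPM, lay above the SAT T cell-like levels, so no difference was detectable with these few cells. Over all leukocyte-like cells the log2 ratio of tumor over SAT at 1000 UMIs was -1.04 (-1.8 to -0.35) in the PBS pair and -1.13 (-1.77 to -0.56) in the D-CAN pair. Between macrophage-like cells alone it was -0.13 (-1.73 to 1.89) and -0.13 (-1.56 to 1.62), so within this type no difference was detectable at this depth. With all UMIs it was -0.03 (-0.91 to 0.93) and -0.61 (-1.23 to 0.02). B and T cell transcripts were at 601 and 1259 CPM in SAT_PBS and SAT_D-CAN macrophage-like cells, against 69.4 and 76.1 in Tumor_PBS and Tumor_D-CAN. Their part in the SAT macrophage-like Cxcr4 was not tested.

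Endothelial-like cells held 30.4% and 15.5% of the tumor Cxcr4 UMIs. They were at 88.1 CPM (56.5 to 131) in Tumor_PBS, against 43.9 in leukocyte-like cells, with overlapping intervals. In Tumor_D-CAN they were at 47.7 (25.4 to 81.6) against 56.9. At 1000 UMIs they carried 0.0506 UMIs per cell in Tumor_PBS, on 4 UMIs, against 0.0437 in leukocyte-like cells. Most endothelial-like Cxcr4 UMIs were in the Nts-led cluster, at 109 CPM (68.3 to 165; 15 of 69 cells) in Tumor_PBS and 87.0 (46.3 to 149; 6 of 29 cells, 61.5% of UMIs in 1 cell) in Tumor_D-CAN. The Aqp1-led cluster had 2 UMIs in Tumor_PBS, which gives a log2 ratio of 1.95 (-0.08 to 5.08). It had none in Tumor_D-CAN, where the exact lower limit of the Nts-led over Aqp1-led ratio was 2.51-fold. Per 1000 UMIs of the macrophage marker list the Nts-led cluster had 957 and 2167 Cxcr4 UMIs, against 1.56 and 2.21 in tumor leukocyte-like cells. At 1000 UMIs the Nts-led and Aqp1-led clusters had 3 and 1 Cxcr4 UMIs in Tumor_PBS and 1 and 0 in Tumor_D-CAN, too few to give an order at equal depth.

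SAT endothelial-like cells were at 19.8 CPM of Cxcr4 in SAT_PBS and 30.5 in SAT_D-CAN. Capillary-like cells were at 21.6 and 43.8, venous-like at 0 and 12.1, and arterial-like at 69.7 (8 of 70 cells) and 0 (of 14 cells). Tumor over SAT, the endothelial-like log2 ratio with all UMIs was 2.16 (1.26 to 3.06) in the PBS pair. In the D-CAN pair it was 0.65 (-0.42 to 1.63), within counting error. At 1000 UMIs the ratios were 0.14 (-1.94 to 1.87) and -0.68 (-6.24 to 2.48), so no difference was detectable at equal depth. B and T cell transcripts were also present in SAT endothelial-like cells, at 364 CPM over all 14 listed genes in SAT_PBS and 120 in SAT_D-CAN. Per 1000 UMIs of that list, endothelial-like cells had 54.3 and 254 Cxcr4 UMIs and leukocyte-like cells 21.3 and 30.5, and the part of these lymphocyte transcripts in endothelial Cxcr4 was not tested.

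In cancer-like cells Cxcr4 was at the limit of detection. A UMI was found in 5 of 1471 cells (0.34%) in Tumor_PBS and 2 of 737 (0.271%) in Tumor_D-CAN, although these were the deepest cells, with medians of 9941 and 17383 UMIs. At 1000 UMIs it was in 0 of 1445 and 0 of 729 cells, which allows up to 0.208% and 0.412% of cells with a UMI at that depth only. The perivascular-like share in the same libraries was 1 of 77 and 2 of 45 cells at medians of 3722 and 5875 UMIs. These are too few cells with a UMI to set a background for the cancer-like share.

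Ackr3 was a stromal transcript in SAT and was sparse in tumors, where endothelial-like, fibroblast-like and cancer-like cells each held 25% to 35.7% of its UMIs. In SAT fibroblast-like cells held 58.8% and 64.8% of the Ackr3 UMIs, at 204 CPM (167 to 246) in SAT_PBS and 388 (330 to 454) in SAT_D-CAN. Perivascular-like cells were at 179 (77.4 to 353) and 192 (126 to 279), within counting error of the fibroblast-like level in SAT_PBS and below it in SAT_D-CAN, with a log2 ratio of fibroblast-like over perivascular-like of 0.19 (-0.84 to 1.43) and 1.02 (0.42 to 1.66). Endothelial-like cells were lower, at 25.2 (16.7 to 36.4) and 39.6 (28.2 to 54.2). The stromal over endothelial log2 ratio at 1000 UMIs was 2.35 (1.19 to 3.64) in SAT_PBS and 2.87 (1.65 to 4.29) in SAT_D-CAN. Fibroblast-like over endothelial-like was 2.31 (1.13 to 3.62) and 2.95 (1.68 to 4.42), and perivascular-like over endothelial-like 2.64 (0.12 to 4.64) and 2.64 (0.98 to 4.34). The SAT_PBS perivascular-like ratio rests on 3 UMIs in 14 cells. Taken as whole classes, both stromal types thus exceeded the endothelial-like class. T cell-like cells, which should lack Ackr3, gave 2 of 682 and 2 of 715 cells at medians of 2562.5 and 3277 UMIs.

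In tumors Ackr3 was at 62.4 CPM (36.4 to 99.9) in endothelial-like, 30.9 (16.4 to 52.8) in fibroblast-like and 0 in perivascular-like cells of Tumor_PBS. In Tumor_D-CAN the same classes were at 51.4 (28.1 to 86.2), 28.6 (16.4 to 46.5) and 5.74 (0.695 to 20.7). The stromal over endothelial log2 ratio was -1.85 (-3.01 to -0.72) and -1.37 (-2.46 to -0.25) with all UMIs. At 1000 UMIs only 7 and 8 UMIs were left, and the ratio turned to 1.62 (-1.42 to 7.15) and 0.43 (-2.05 to 3.77), so that no order could be read at equal depth. With all UMIs, fibroblast-like cells alone over endothelial-like cells gave -1.01 (-2.18 to 0.11) and -0.84 (-1.97 to 0.30), within counting error. The tumor endothelial Ackr3 lay mostly in the Nts-led cluster, at 84.3 and 66.9 CPM (11 of 69 and 7 of 29 cells), against 0 and 32.5 in the Aqp1-led cluster.

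Between the deep Pi16-led and the Apod-led clusters of SAT fibroblasts, Ackr3 was distributed the other way from the ligands. The deep Pi16-led cluster was at 401 and 858 CPM, with a UMI in 19 of 21 and 20 of 20 cells, and the Apod-led cluster at 33.2 and 87.5. The Col1a1-led and shallow Pi16-led clusters of SAT_PBS were at 188 and 180. In tumors the Cfd and Pi16 cluster was at 138 and 184 CPM (9 of 21 and 6 of 14 cells), and the Sfrp2-led cluster had 1 UMI in each library, a log2 ratio of 5.53 (2.77 to 10.95) and 6.46 (3.76 to 11.85). Among fibroblast clusters Ackr3 was therefore highest in the deep Pi16-led one in SAT and in the Cfd and Pi16 one in tumors. The shallow Pi16-led cluster did not exceed the Col1a1-led one. Cxcl14 in SAT was highest in the Apod-led cluster. Within single SAT_D-CAN fibroblast-like cells, Cxcl14 and Ackr3 were found together in 3 of 70, where 11.4 would be found if the 25 Cxcl14 and 32 Ackr3 cells were independent, and Cxcl12 and Cxcl14 together in 18 against 14.3. In SAT_PBS the same pairs were found in 3 against 6.06 and in 22 against 9.26 cells. Cxcl12 and Ackr3 were found together in 19 cells against 17.6 in SAT_PBS and in 14 against 18.3 in SAT_D-CAN. With all UMIs, Ackr3 thus did not part from Cxcl12 within single cells of SAT_PBS. At 1000 UMIs Cxcl12 and Ackr3 were found together in 6 cells against 7.17 in SAT_PBS and in 3 against 6.15 in SAT_D-CAN. Cxcl14 and Ackr3 were together in 1 against 2.05 and 0 against 2.71, and Cxcl12 and Cxcl14 in 8 against 4.10 and 9 against 4.23. These counts are small and were not tested.

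Among SAT endothelial-like cells Ackr3 was highest in the arterial-like ones, at 105 CPM (10 of 70 cells) in SAT_PBS and 137 (4 of 14 cells) in SAT_D-CAN. Venous-like cells were at 17.1 and 48.3 and capillary-like cells at 15.5 and 25.3. The arterial-like interval, 54.0 to 183 in SAT_PBS, did not overlap those of the other endothelial types, and in SAT_D-CAN, at 59.0 to 269, it overlapped only that of venous-like cells. In tumor endothelial-like cells Cxcr4 and Ackr3 were found in the same cell in 5 of 99 and 3 of 63, against 1.89 and 1.05 if independent, and in none at 1000 UMIs. In SAT endothelial-like cells they were found together in 0 of 530 and 5 of 169, against 1.04 and 2.84.

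Cancer-like cells held 33.3% and 35.7% of the tumor Ackr3 UMIs at a level of only 1.13 CPM in Tumor_PBS and 1.54 in Tumor_D-CAN. A UMI was found in 14 of 1471 (0.952%) and 14 of 737 (1.90%), and at 1000 UMIs in 2 of 1445 and 0 of 729. A cluster led by Lcn2, Psca and Krt8, secretory and luminal epithelial genes, held 12 of the 17 UMIs in Tumor_PBS and 17 of the 20 in Tumor_D-CAN, at 3.62 and 6.46 CPM. Tumor T cell-like cells, which should lack Ackr3, gave 0 of 20 and 0 of 26 at medians of 769 and 1251.5 UMIs, too few to set a background. Leukocyte-like cells were at 2.69 and 2.67 CPM, no lower than the cancer-like class as a whole.

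Tumor over SAT, fibroblast-like Ackr3 was lower, with a log2 ratio of -2.72 (-3.68 to -1.89) in the PBS pair and -3.76 (-4.60 to -3.02) in the D-CAN pair with all UMIs. At 1000 UMIs it was -1.22 (-2.82 to 0.13) and -2.18 (-3.93 to -0.75), so that only the D-CAN pair was beyond counting error. Endothelial-like Ackr3 in the PBS pair went from 1.31 (0.35 to 2.23) with all UMIs to -1.44 (-6.89 to 1.41) on 1 and 9 UMIs at equal depth, and gave no direction. Summed over the class, fibroblast-like cells were thus lower in Cxcl12 and Ackr3 and higher in Cxcl14 in the tumor than in SAT. Ackr3 in the PBS pair was the exception at equal depth. Single clusters did not all follow this. The tumor Cfd and Pi16 cluster held more Cxcl12 CPM than the deep Pi16-led cluster of SAT. Under D-CAN it held less Cxcl14 CPM than the Apod-led cluster. The part of cluster makeup in the class differences was not tested.

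At class level most D-CAN over PBS differences among the 4 genes were below 2-fold, several of them with wide intervals. In the 5 tumor classes, 1 of 12 pairs of a member and a class with at least 20 UMIs was 2-fold or more apart, Cxcl14 in perivascular-like cells, where 6.63% of all genes tested were. Its log2 ratio was 1.97 (1.39 to 2.60), 0.75 when the cell with the most UMIs was left out of each library, and 0.09 with 1 clustering step. Tumor Cxcl12 differed by less than counting error in endothelial-like cells, at -0.04 (-0.31 to 0.23), and in fibroblast-like cells, at -0.11 (-0.41 to 0.20). The Aqp1-led cluster was 30.3% of Tumor_PBS and 54.0% of Tumor_D-CAN endothelial-like cells, so the endothelial-like value sums different mixtures. The backgrounds in those classes were 7.47% and 5.07%. Tumor fibroblast-like Cxcl14 was lower by little, at -0.21 (-0.37 to -0.05), and at 0.13 within its main cluster. In the smaller Cfd and Pi16 cluster it was lower under D-CAN by more than 2-fold. Tumor Cxcr4 was at 0.38 (-0.18 to 0.94) in leukocyte-like cells (background 3.74%) and at -0.88 (-1.98 to 0.15) in endothelial-like cells (background 7.47%). Ackr3 was at 0.46 (-0.55 to 1.48) in cancer-like cells (background 1.93%). The intervals of endothelial-like Cxcr4 and cancer-like Ackr3 reached past 2-fold. Within the Aqp1-led endothelial cluster Cxcl12 was lower under D-CAN, at -0.82 (-1.18 to -0.46), against a background of 8.97%, while the Nts-led cluster was at 471 and 609 CPM.

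In the 4 main SAT classes 2 of 9 such pairs were 2-fold or more apart. Cxcl14 was higher under D-CAN in fibroblast-like cells, with a log2 ratio of 1.67 (1.35 to 1.99), in a class where 10.8% of all genes tested were 2-fold apart. Within the Apod-led cluster alone the Cxcl14 ratio was 0.64, below 2-fold, and the share of Apod-led cells in the class was 23.4% and 65.7%. Cxcl12 was lower in SAT leukocyte-like cells, at -1.43 (-2.33 to -0.59) on levels of 8.56 and 3.17 CPM, which are the background level of this gene in a class that should lack it (3.13% of genes 2-fold apart). Fibroblast-like Cxcl12 was at 0.06 (-0.15 to 0.27) and Ackr3 at 0.93 (0.57 to 1.3). These class values also sum different mixtures. Within the deep Pi16-led and within the Apod-led cluster, Ackr3 CPM was higher under D-CAN by more than 2-fold, and Cxcl12 CPM was lower. Endothelial-like Cxcl12 was lower by less than 2-fold, at -0.30 (-0.41 to -0.20), where 4.36% of genes were 2-fold apart, and at 0.0020 in cells with at most 20% mitochondrial UMIs. Perivascular-like Ackr3 was at 0.10 (-1.08 to 1.45), where 13% were.

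Cxcr4 was higher under D-CAN in SAT B cell-like and T cell-like cells. Its log2 ratio was 0.62 (0.44 to 0.80) over leukocyte-like cells, 0.89 (0.63 to 1.15) in B cell-like and 0.50 (0.17 to 0.84) in T cell-like cells, where 3.57% and 2.71% of genes were 2-fold apart. At 1000 UMIs B cell-like cells carried 0.126 and 0.267 Cxcr4 UMIs per cell in SAT_PBS and SAT_D-CAN, and T cell-like cells 0.0672 and 0.105, so the higher level under D-CAN was also seen at equal depth. In the first clustering step 1 B cell cluster held 447 SAT_PBS and 297 SAT_D-CAN cells, and another 216 and 332. NK cell-like cells were close in the libraries, at 0.0707 and 0.0748 Cxcr4 UMIs per 1000 UMIs, on 14 and 19 UMIs. In macrophage-like cells the log2 ratio of D-CAN over PBS was 1.02 (0.13 to 1.98), where 12.5% of genes were 2-fold apart. B and T cell transcripts also stood higher in the SAT_D-CAN macrophage-like cells, at 1259 CPM over all 14 listed genes against 601 in SAT_PBS, and Cxcr4 per 1000 UMIs of that list was 76.5 (42.8 to 126) in PBS and 73.9 (52.8 to 101) in D-CAN. SAT venous-like cells had more Cxcl12 and Ackr3, at 0.71 (0.38 to 1.05) and 1.5 (0.07 to 3.14), with a background of 7.42%. A shallow Glycam1-led cluster held 132 of the 160 venous-like cells in SAT_PBS and 12 of 39 in SAT_D-CAN, and a deep Lrg1-led cluster the others. Mixed vascular cells had more Cxcl12, at 1.63 (1.46 to 1.8), with a background of 11.6%. A Ttn-led and a Plvap-led cluster held 109 and 80 of these cells in SAT_PBS, at 987 and 1540 CPM of Cxcl12, and 3 and 21 in SAT_D-CAN, at 1314 and 3886 CPM. Both classes thus sum different mixtures in the 2 libraries. Arterial-like cells had less Cxcl12 CPM under D-CAN by more than 2-fold, on 70 cells in SAT_PBS and 14 in SAT_D-CAN. These are differences between 1 library and another, and treatment cannot be told apart from library.

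**Figure D5:**
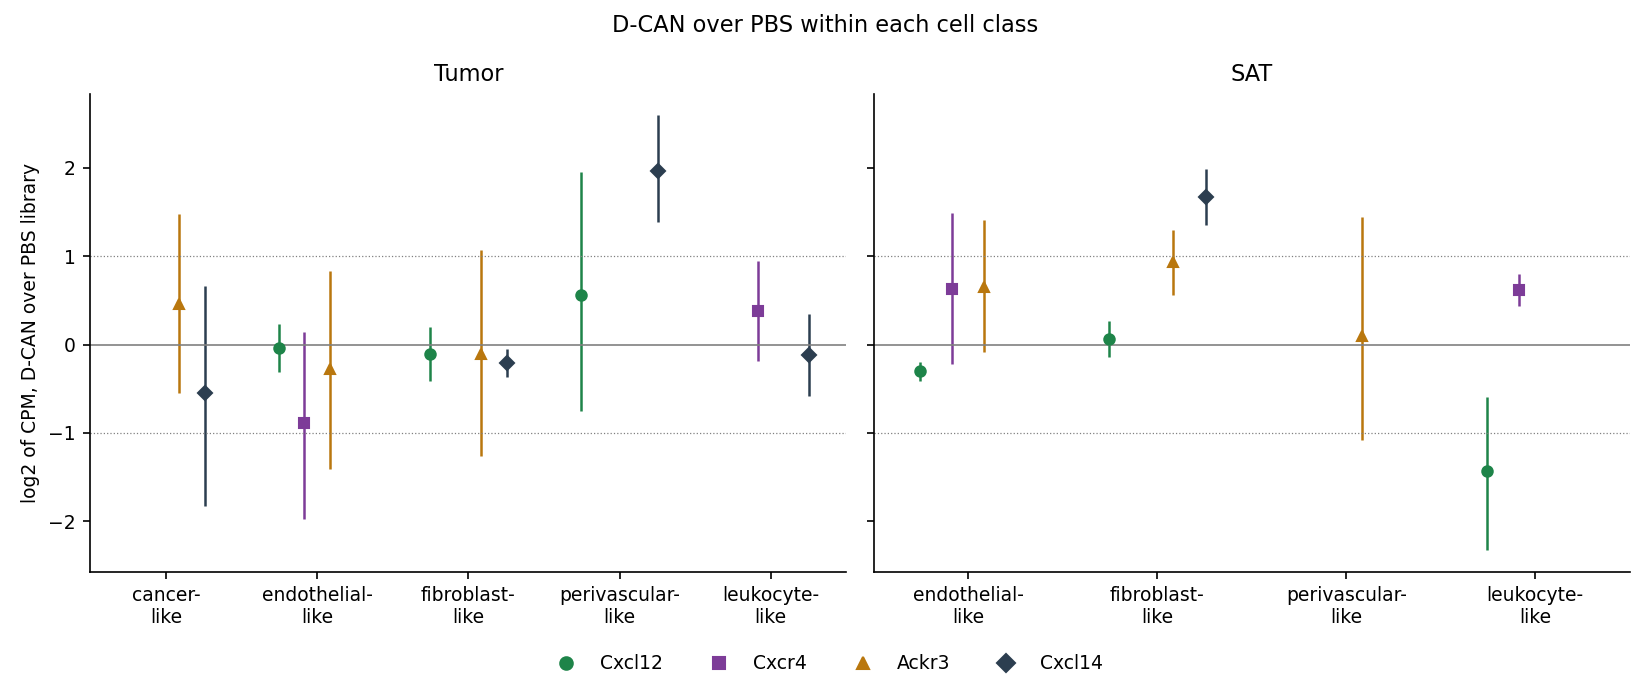
Log2 ratio of CPM, D-CAN over PBS (vertical axis), for the members with at least 20 UMIs over both libraries in each class of tumor and SAT, with 95% counting intervals. Dotted lines mark 2-fold. Cxcl14 in tumor perivascular-like cells (1.97) and in SAT fibroblast-like cells (1.67) and Cxcl12 in SAT leukocyte-like cells (-1.43) lie past the lines.

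Beyond the 4 genes, the axis was described by a list of 37 that includes them, of which 36 were matched: other ligands and receptors, enzymes and proteoglycans that cut or bind CXCL12, signalling and desensitization genes, and regulators. Between endothelial-like and stromal cells, 12 of 27 tested genes of the list were at least 2-fold higher and 7 lower in Tumor_PBS, 11 and 5 of 26 in Tumor_D-CAN, 6 and 8 of 32 in SAT_PBS, and 9 and 8 of 30 in SAT_D-CAN. Over all genes tested 30.1%, 31.6%, 30.3% and 33% were 2-fold apart in either direction. The median log2 ratio of the list was 0.90, 0.55, 0.25 and 0.57, beside 0.06, 0.09, 0.16 and 0.12 for all genes. At the ends of the list were Arrb1, an arrestin that desensitizes the receptors, at 3.51 and 5.26 in Tumor_PBS and Tumor_D-CAN, and the matrix proteases Mmp2, at -6.76 in Tumor_PBS, and Ctsk, at -6.64 in Tumor_D-CAN and -6.09 in SAT_PBS.

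Between tumor and SAT stroma, 3 of 29 tested genes of the list were at least 2-fold higher and 11 lower in the PBS pair, and 3 and 9 of 26 in the D-CAN pair, where 23.2% and 29.1% of all genes were 2-fold apart. Dpp4, the peptidase that trims and inactivates CXCL12, was at 6.66 CPM in Tumor_PBS stroma against 197 in SAT_PBS, and at 17.6 against 217 in the D-CAN pair, with log2 ratios of -4.89 (-6.54 to -3.62) and -3.62. Mif, another ligand of CXCR4, went the other way, at 618 CPM against 141 and 711 against 76.7, with log2 ratios of 2.14 and 3.21. In endothelial-like cells Mif was also higher in the tumor, at 2.27 and 1.85, where 23.5% and 22.3% of genes were 2-fold apart. Cancer-like cells held the most Mif of the tumor classes, at 945 and 932 CPM, and the part of free RNA in the stromal and endothelial values was not tested. The tumor stroma, a class with a larger part of perivascular-like cells, thus had less Cxcl12, less Dpp4 and more Mif transcript than SAT stroma.

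Between B and T cell-like cells of SAT, 5 of 25 tested genes of the list were at least 2-fold higher and 3 lower in SAT_PBS, and 6 and 3 of 26 in SAT_D-CAN, or 32% and 34.6% of the list beside the 20.9% and 22.2% of all genes. Cd74, the invariant chain that also binds MIF as a CXCR4 partner, was at 8255 CPM in B against 97.1 in T cell-like cells of SAT_PBS and at 9639 against 80.0 in SAT_D-CAN. Rgs1, which shortens chemokine receptor signalling, went the other way, with log2 ratios of -3.31 and -2.63. Cd74 and Cxcr4 were thus both higher in B cell-like cells, and Rgs1 in T cell-like cells.

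The genes whose levels followed the members most closely were found by Pearson's r of log2(CPM + 1) over 31 units of 1 class in 1 library, among 10572 genes with at least 200 UMIs. For Cxcl12 they were Timp3 (0.95), Stox2 (0.95) and Ebf3 (0.94), for Cxcr4 Inpp5d (0.94), Hcls1 (0.92) and St8sia4 (0.92), for Ackr3 Pcsk6 (0.91), Gja1 (0.91) and Gprc5b (0.90), and for Cxcl14 Col14a1 (0.96), Olfml3 (0.91) and Lrp1 (0.86). Between members r was 0.87 for Cxcl12 and Ackr3, 0.42 for Cxcl14 and Ackr3 and 0.28 for Cxcl12 and Cxcl14. Cxcr4 was at -0.21 with Cxcl12, -0.23 with Ackr3 and -0.56 with Cxcl14. Units of 1 library share its depth and free RNA and are not independent, so these are descriptions.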

How the data were processed

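Cells of MycCaP tumors and of SAT were captured as droplet single-cell libraries, 1 per tissue and treatment. The deposited files are UMI counts per gene and cell, made by the authors with Cell Ranger 3.1.0 (a file header gives 3.0.2 for SAT_D-CAN) and STAR 2.6 on mm10 (Ensembl 93), per the labels, the methods and the file headers. They were filtered to cells by Cell Ranger and pooled no libraries; whether a library pooled mice was not given in the sources used here. The totals were 17996284, 15672787, 6667064 and 7444729 UMIs for Tumor_PBS, Tumor_D-CAN, SAT_PBS and SAT_D-CAN, and pairs of libraries shared 0 to 2 barcodes.

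From these counts, cells with at least 200 genes were kept (2761, 1487, 2841 and 1897). They were log-normalized and clustered within each tissue in Seurat 5.3.0 (R 4.3.3) on 2000 variable genes without the 4 members and the listed axis genes, with 10 principal components and a resolution of 0.8, and again within vascular and stromal cells and within leukocytes. A cluster was named where at least 3 markers of a list were detected and its 10 leading genes did not go against the name. Clusters with at least 5 markers of both the endothelial and the mural list were called mixed vascular. Names were rebuilt here, so they can differ from the study's. Scrublet, as run in scanpy 1.11.5, called 2, 5, 5 and 4 doublets, which is too few to be a working call, and no cell was removed as a doublet.

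Counts were summed per class and library and divided by the class's UMIs (CPM). Thinning drew 1000 UMIs per cell with a fixed seed. With 1 library per group no test was run and no p-value is given. Shares have Clopper-Pearson intervals, sums Poisson intervals and ratios exact conditional binomial intervals (scipy 1.17.1), all at 95% and for counting error only. A count of 0 was set to a limit of 3 counts. Folds against this floor leave out the error of the other count, so they can exceed the exact lower limit. Background percentages count genes with at least 20 UMIs over both arms whose CPM differed by 2-fold or more, after adding 0.5 UMI. The summing, thinning and intervals were tested on simulated data. The simulated counts held no extra spread between cells, so their coverage does not carry over to UMIs clumped in few cells. Genes named beyond the members were those at either end of the axis list in a comparison and the 3 with the highest r per member. The members and lists were chosen with earlier results of these data known. Coordinates are from GENCODE vM21. Alternatives tried were other thinning depths, clustering settings, cell filters and UMI minimums, and 5 chosen after seeing the data (1 clustering step, mixed vascular cells as stroma or as endothelium, without the cell with the most UMIs, within 1 cluster).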

Additional observations from a re-analysis of the deposited data

Results flagged for a closer look

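Cxcl14 in fibroblast-like cells stood at a log2 ratio of D-CAN over PBS of -0.21 in the tumor and 1.67 in SAT, in opposite directions in the 2 tissues. Within the main cluster of each tissue alone, the Sfrp2-led and the Apod-led, both ratios were positive and below 2-fold. In the other tumor cluster, led by Cfd and Pi16, Cxcl14 was lower under D-CAN by more than 2-fold. The Apod-led cluster was 23.4% of SAT_PBS and 65.7% of SAT_D-CAN fibroblast-like cells. The difference between the tissues was not tested, since each arm is 1 library. Ackr3 in stromal over endothelial-like cells, with all UMIs, was at -1.85 in Tumor_PBS and -1.37 in Tumor_D-CAN, and at 3.0 in SAT_PBS and 3.09 in SAT_D-CAN, again opposite in the 2 tissues and not tested. At 1000 UMIs per cell the tumor Ackr3 values were 1.62 and 0.43 with intervals that cover 0. With all UMIs, tumor fibroblast-like cells alone over endothelial-like cells gave -1.01 (-2.18 to 0.11) and -0.84 (-1.97 to 0.30). The tumor direction was thus beyond counting error only with perivascular-like cells counted in the stroma.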

How the results depend on the processing

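No paired analysis was possible because each group is 1 library. In Tumor_PBS the log2 ratio of endothelial over stromal Cxcl12 (2.49) was 1.55 at 2000 UMIs per cell and 1.83 without thinning. In SAT it was 0.44 (PBS) and 0.0074 (D-CAN) with mixed vascular cells as stroma, an alternative chosen after seeing the data, and in SAT_D-CAN (0.76) it was 1.60 at 500 UMIs, 0.27 with at least 500 genes and 0.24 at resolution 0.4. Tumor over SAT Cxcl12 in endothelial-like cells was -0.97 at 2000 UMIs and -0.85 without thinning in the PBS pair and 0.16 with at least 500 genes in the D-CAN pair, and in D-CAN stroma -0.61 at 500 UMIs and -2.20 with mixed vascular cells as stroma. Ackr3 stromal over endothelial in Tumor_PBS (1.62) was -1.58 at 2000 UMIs and -1.85 without thinning. Shares of cancer-like cells without thinning were 0.34% for Cxcr4 and 0.952% for Ackr3 in Tumor_PBS and 1.90% for Ackr3 in Tumor_D-CAN, which was 0.566% at 2000 UMIs. Cxcl14 fibroblast-like over perivascular-like was 3.22 in Tumor_PBS in 1 clustering step, and its SAT_D-CAN bound against the floor of 3 counts was 1.67 at 500 UMIs. The count of tumor pairs 2-fold apart (1) was 2 with 20 principal components, 3 per cell at 1000 UMIs, 5 with no minimum, 0 in 1 clustering step, 2 without the top cell and 3 within the main cluster. Tumor fibroblast-like Cxcl14 (-0.21) was 0.13 within the main cluster, and SAT endothelial-like Cxcl12 (-0.30) was 0.0020 in cells with at most 20% mitochondrial UMIs. Resolution 0.4 left no SAT perivascular-like class. The causes were not tested. Cxcr4 B over T stayed at 0.90 to 1.5 (SAT_PBS) and 1.26 to 1.78 (SAT_D-CAN). Tumor Ackr3 and tumor T cell-like Cxcr4 rest on few UMIs and few cells.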

Other observations

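Other homing receptors separated the lymphocytes more sharply than Cxcr4 did, on a list of 13 genes of which 11 were matched. Cxcr5, the receptor of B cell follicles, was at 66.2 CPM in SAT_PBS B cell-like cells and 93.3 in SAT_D-CAN, against 6.74 and 6.02 in T cell-like cells. Ccr6 was at 96.5 and 84.1 in B against 7.86 and 7.31 in T cell-like cells. Ccr7, which guides cells into lymph nodes, was in both, at 192 and 381 in B and 236 and 299 in T cell-like cells. Cxcr3, a receptor of interferon-induced chemokines, was at 26.9 and 17.2 in T cell-like cells and had no UMI in B cell-like cells of either library.

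Tumor T cell-like cells, in which Cxcr4 was found in at most 1 cell, carried Cxcr6 at 310.2 CPM (8 of 20 cells) in Tumor_PBS and 236 in Tumor_D-CAN, against 27.5 and 42.1 in SAT T cell-like cells. Its ligand Cxcl16 was at 522 and 500 CPM in tumor macrophage-like cells and at 126 and 116 in those of SAT. In SAT the follicle chemokine Cxcl13 was at 531 CPM in venous-like cells of SAT_PBS, from 2 of 160 cells, and at 2603 in SAT_D-CAN, from 3 of 39. In fibroblast-like cells it was at 80.1 and 711 CPM.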
